A study of Homo sapiens with 50 samples.

Results

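Cohesin is the ring-shaped protein complex that holds sister chromatids together from replication to mitosis. The transcript levels of 9 human cohesin genes were examined in H1299 cells of α-particle-irradiated and sham-irradiated dishes. The genes are SMC1A and SMC3, which form the long arms of the ring; RAD21, which closes it; STAG1 and STAG2, alternative subunits bound to RAD21; NIPBL, which loads the ring onto DNA; PDS5A and PDS5B, which govern its maintenance and release; and ESCO2, the acetyltransferase that acts on SMC3 during S phase. Members were all probes other than controls to which the array files gave one of these gene names. There were 17 such probes, of 34127 on the array, for 9 of 25940 named genes. The genes were chosen with results of these data known, because an SMC1A probe was among the largest rises in directly irradiated cells with reduced RAD9.

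H1299 is a human non-small cell lung carcinoma line, and H1299shRAD9 stands for H1299 cells that stably express a short hairpin RNA against RAD9, a checkpoint protein of the 9-1-1 clamp. The study used 2 such transfectants interchangeably, and which of them gave a given sample was not recorded in the sources used here. Dishes carried cells on thin Mylar that the helium ions (linear energy transfer 125 keV per µm) reached, and, facing them, bystander cells that they did not. Cells were harvested 4 h after a dose of 1 Gy. In each cell line 5 groups of 5 samples were measured, which were chosen by micronucleus counts: CTL, the sham-irradiated cells; BP, bystander cells with many micronuclei (bystander positive); DBP, the directly irradiated cells of the BP dishes; BN, bystander cells with few micronuclei (bystander negative); and DBN, the directly irradiated cells of the BN dishes. Each of the 50 samples was hybridized to a 1-colour Agilent 60-mer array, and the arrays lay on 13 slides. Of the probes, 55.4 to 73.1% were well above background on the H1299shRAD9 arrays and 59.7 to 83.4% on the H1299 arrays.

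A cohesin ring is loaded onto chromosomes before replication, is made cohesive behind the fork when ESCO2 acetylates SMC3, and is opened at anaphase when separase cuts RAD21. SMC1A is also a substrate of the ATM kinase after DNA breaks, and cells use cohesin in recombinational repair between sister chromatids. SMC1A and STAG2 are X-linked genes.

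All values below are levels, or differences of levels, on the log2 scale relative to the median probe of the array, so that 0 is the level of the median probe and a difference of 1 is a doubling of signal. A level depends on the probe as well as on the transcript, and levels of different probes are not set against each other. A probe is named by the transcript base at which it starts. Of the 17 probes, 16 passed the criterion on background used for the tests, and those 16 were well above background on all 50 arrays. The remaining probe, 1 of 4 for STAG2 (base 126), was well above background on 10 of 50 arrays and was not tested.

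Of the 3 SMC1A probes, those at bases 621 and 2535 varied between groups and the one at base 9582 did not follow them. The 2 are printed here because the SMC1A results rest on them, together with the STAG2 probe at base 375, the member probe called in most comparisons. All are given 5′ to 3′ in the sense of the transcript. Positions are on hg19, as in the array annotation: chrX:53440185-53440244 (minus strand), chrX:53426547-53426606 (minus strand) and chrX:123159708-123159767 (plus strand).
SMC1A, base 621: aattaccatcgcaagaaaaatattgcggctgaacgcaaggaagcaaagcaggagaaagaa
SMC1A, base 2535: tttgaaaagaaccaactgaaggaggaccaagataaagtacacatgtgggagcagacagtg
STAG2, base 375: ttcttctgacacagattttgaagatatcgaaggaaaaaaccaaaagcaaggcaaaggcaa

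These 3 probes share a high purine content that the choice of genes did not use. The share of A or G was 71.7%, 70% and 65% of the 60 bases, against a median of 50% over the 20078 probes tested, and 99.8%, 99.5% and 97.2% of the probes tested had at most this share. The SMC1A probe at base 9582 (chrX:53401153-53401212, minus strand), far downstream in the transcript, had 53.3% A or G. Not every member probe that was higher in H1299shRAD9 DBP in 5 of 5 pairs had this trait, since ESCO2 at base 1763 had 41.7% A or G, with 21% of the probes tested at or below it.

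The target of the hairpin was examined first, since it bears on the labels. RAD9A was 3.65 ± 0.19 (SD, n = 5) in the H1299shRAD9 controls and 4.01 ± 0.13 in the H1299 controls. The difference of −0.36 (limma adjusted p = 0.0561) did not pass, since its unadjusted p was above the 0.005 set for this comparison. The study reported by Western blot that RAD9 protein was reduced in both transfectants, and protein is not measured by these arrays. Of the markers of the line, KRT8, KRT18 and VIM were well above background on 50 of 50 arrays at all of their probes. Markers of other cell types were mixed: all 3 PECAM1 probes were above background on 0 to 2 arrays and COL1A1 on 8, but 2 of 5 PTPRC probes and the CDH5 probe were above background on all 50, CD3E on 38 and 1 of 2 DCN probes on 44. Their part in the results was not tested.

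SMC1A was lowest in the unirradiated H1299shRAD9 cells at both upstream probes. At base 2535 the 5 H1299shRAD9 CTL arrays read 4.12, 3.91, 4.98, 4.18 and 4.82 (mean 4.40 ± 0.47, SD, n = 5). The H1299 CTL arrays read 4.21, 5.38, 4.95, 5.01 and 6.20 (mean 5.15 ± 0.72). The groups overlap, with H1299 replicates 1 and 3 inside the range of the H1299shRAD9 controls.

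In H1299shRAD9 the irradiated and bystander arrays lay higher at this probe. DBP arrays read 5.33, 5.53, 5.82, 5.59 and 5.70, and DBN arrays 4.26, 5.57, 5.81, 6.03 and 5.51. Bystander arrays read 6.40, 4.13, 5.12, 5.11 and 6.11 in BP and 4.71, 6.03, 5.96, 6.05 and 5.37 in BN. All 5 DBP arrays were above every control, while DBN replicate 1, BP replicate 2 and BN replicate 1 lay among the controls.

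In H1299 the same probe was as variable within groups as between them. DBP arrays read 4.35, 3.89, 4.69, 5.86 and 6.15, and BP arrays 6.09, 4.08, 4.66, 5.98 and 5.74. DBN arrays read 4.90, 3.50, 4.66, 4.55 and 5.45, and BN arrays 3.94, 6.05, 4.38, 5.35 and 5.77. The SD within a group was 0.71 to 0.98, and each of these groups overlaps with CTL.

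Ordered by mean, the 10 groups ran from H1299shRAD9 CTL (4.40) through H1299 DBN (4.61), DBP (4.99), BN (5.10), CTL (5.15) and BP (5.31) to H1299shRAD9 BP (5.37), DBN (5.44), DBP (5.59) and BN (5.62). All 9 gaps between neighbours in this order were smaller than the lesser of their 2 SDs, and the largest was 0.38, above H1299 DBN.

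**Figure D1:**
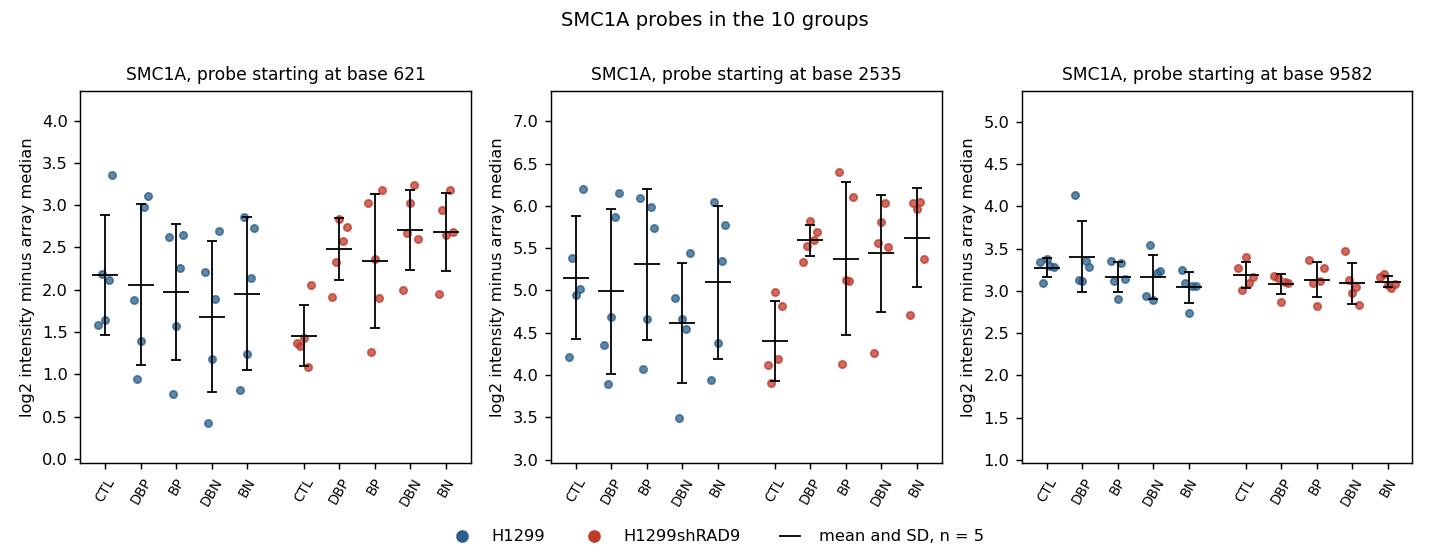
Level of SMC1A at its 3 probes (log2 relative to the array median) in the 10 groups; each point is an array and the bar is the mean of 5 with its SD. At bases 621 and 2535 the H1299shRAD9 controls have the lowest mean, 1.45 and 4.40, while at base 9582 all group means lie between 3.04 and 3.40.

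The probe at base 621 moved with the one at base 2535. H1299shRAD9 CTL arrays read 1.36, 1.33, 1.43, 1.09 and 2.06, DBN arrays 1.99, 2.67, 3.03, 3.24 and 2.60, and BN arrays 1.95, 2.94, 2.65, 3.18 and 2.68. DBP arrays read 1.92, 2.32, 2.84, 2.58 and 2.74, and BP arrays 3.02, 1.26, 2.36, 1.90 and 3.17. The control of replicate 5 was above the lowest array of each of the other 4 groups, so that all of them overlap with CTL. In H1299 the group means were 1.68 (DBN) to 2.17 (CTL), with SDs of 0.71 to 0.95, and the lowest array, DBN replicate 2, read 0.42.

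At base 9582 no such pattern was seen. H1299shRAD9 CTL arrays read 3.27, 3.01, 3.41, 3.10 and 3.16, and DBN arrays 3.47, 3.13, 2.97, 3.04 and 2.83. The means of the 10 groups differed by 0.36 at most, from 3.04 (H1299 BN) to 3.40 (H1299 DBP, where 1 array read 4.13), and the mean SD within groups was 0.19.

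The 3 probes were compared over the 50 arrays, which share groups and slides. The upstream probes had r = 0.927 with each other (Spearman's rho 0.927), 0.919 within H1299shRAD9, 0.933 within H1299 and 0.929 after group means were removed. The probe at base 9582 had r = −0.118 with base 2535 and −0.0771 with base 621. The 2 upstream probes thus gave 1 pattern over these arrays, and the downstream probe another.

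The comparison of H1299shRAD9 DBP with CTL is the one by which the genes were chosen and is given as a description without a test. SMC1A was 1.19 higher at base 2535 (2.28-fold, 5 of 5 pairs, groups not overlapping) and 1.03 higher at base 621 (5 of 5 pairs), and differed by −0.11 at base 9582. STAG2 at base 375 was 0.77 higher and ESCO2 at base 1763 was 0.39 higher, each in 5 of 5 pairs. The other 11 member probes tested differed by −0.11 to 0.35. A probe is called here when its p is below 0.006 (0.005 between unirradiated lines) and its Benjamini-Hochberg FDR below 10%; in this comparison 1.29% of all probes were. Since the same controls enter them, the H1299shRAD9 comparisons of BP, DBN and BN with CTL, the interactions and the comparison of the unirradiated lines are not independent of this one.

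In H1299shRAD9 DBN, 3 of the 16 member probes were called, all higher than in CTL, against a background of 1.95% of all probes called higher. The count is not independent of the choice of genes, since the same controls entered that choice. The 3 probes are not separate results either. SMC1A gave 2 of them (r = 0.927 with each other), and the third had r = 0.80 with SMC1A at base 2535. SMC1A rose by 1.25 ± 0.23 (SE, n = 5 pairs, limma adjusted p = 0.0613) at base 621 and by 1.03 ± 0.24 (adjusted p = 0.0967) at base 2535, 2.38-fold and 2.05-fold, in 5 of 5 pairs. At base 9582 the difference was −0.10 ± 0.12 (95% interval −0.37 to 0.17, adjusted p = 0.787), an interval that does not reach the values of the upstream probes. The third probe called was STAG2 at base 375, described below. The median over the 16 member probes was −0.03, against −0.01 over all probes tested, and 7 of 16 were above 0. In a cell population, a difference in the share of cells at a stage of the cycle and a difference in RNA per cell cannot be told apart.

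In BP and BN of this line no SMC1A probe passed both thresholds. In BP the differences from CTL were 0.89 ± 0.20 at base 621 (4 of 5 pairs, limma adjusted p = 0.106) and 0.97 ± 0.27 at base 2535 (5 of 5, adjusted p = 0.193). In BN they were 1.23 ± 0.23 and 1.22 ± 0.25 (5 of 5 pairs each, adjusted p = 0.169 for both), where 0.0299% of all probes were called and no member was, by limma or by the random-variance test (5 members at an unadjusted p under 0.05). The BN differences were thus as large as those in DBN, and DBN differed from BN by 0.02 (95% interval −0.23 to 0.28) at base 621 and by −0.19 (−0.46 to 0.08) at base 2535. Base 9582 differed by −0.06 in BP and −0.08 in BN.

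The call in DBN was lost at base 2535 under most alternatives (adjusted p = 0.1001 to 0.26 over the alternative scalings, the other background criterion, the other values and the fits without a block or with all groups of the line). Without replicates 2, 3 or 4 neither SMC1A probe was called (adjusted p = 0.135 to 0.235), and without replicate 5 base 2535 was not (0.115). DBN and CTL shared only 1 slide. It held 2 CTL arrays and 1 DBN array, replicate 1, which was the lowest DBN array at both probes. Within this slide the difference was 0.25 at base 2535 and 0.65 at base 621. With slide as a fixed block over all 50 arrays it was 0.25 and 0.61, with no call. Within the slides that BP or BN shared with CTL, the differences at base 2535 were 0.53 and 1.29 in BP and 0.69 and 0.55 in BN. At base 621 they were 0.64 and 1.12 in BP and 0.60 and 0.63 in BN.

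The balance of upstream and downstream signal on an array moved with SMC1A. For each array, a 5′ to 3′ index was the median over 1827 transcripts of the most upstream minus the most downstream probe, which were at least 500 bases apart; lower values mean less signal upstream. It was −1.88 ± 0.05 (SD, n = 5) in the H1299shRAD9 controls, from −1.94 to −1.82, and −1.76 to −1.70 on average in the other groups of this line, whose arrays all lay above the controls (−1.80 to −1.60). Over the 50 arrays, which share groups and slides, SMC1A at base 2535 had r = 0.636 with the index (rho 0.537), 0.536 within H1299shRAD9 and 0.756 within H1299. Without the 2 arrays farthest from the median index r was 0.552. The 5 lowest arrays in H1299, DBP replicates 1 and 2, BP 2, DBN 2 and BN 1, read −2.23 to −2.01 on the index and 3.50 to 4.35 at base 2535.

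With the index as a covariate over all 50 arrays, the DBN difference was 0.50 at base 2535 and 0.74 at base 621 (limma adjusted p = 0.796 and 0.563), a fall of over 1.5 times, and with no covariate in the same fit of 50 arrays it was 1.03 and 1.25 without a call. The part of the index in the SMC1A differences was not tested further. The share of A or G also moved with these differences: across the 20078 probes, which are not independent, its r with the difference from CTL was 0.185 in BP, 0.201 in DBN and 0.234 in BN of H1299shRAD9. It was −0.0979 between the unirradiated lines.

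**Figure D2:**
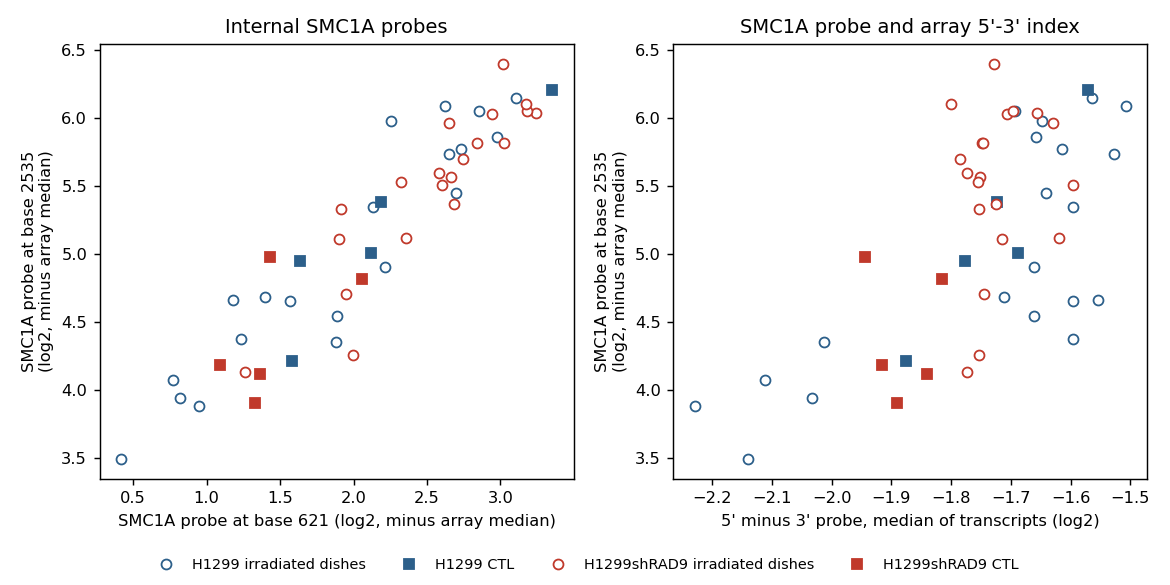
SMC1A level at base 2535 (vertical axes, log2 relative to the array median) on the 50 arrays against the probe at base 621 and the 5′ to 3′ index of the array; filled squares are CTL arrays, open circles all others, and colours mark cell lines. The level rises with base 621 (r = 0.927) and, with more scatter, with the index (r = 0.636).

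The pattern of base 2535 was shared with probes of other genes. Over the 50 arrays, the 5 most alike of 20062 probes of other genes were those of SRRT (r = 0.93), BOD1L and SEPT7 (0.912 each), PARP1 (0.906) and DCAF8 (0.904). Their probes start at bases 793, 8618, 645, 367 and 473 of the transcripts and have 60%, 71.7%, 60%, 56.7% and 70% A or G. The SMC1A probe itself had r = 0.0823 with the share of probes well above background on the array.

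SMC3, the partner of SMC1A in the ring, was measured by 1 probe, at base 3491, and was level across the groups. H1299shRAD9 CTL arrays read 6.04, 5.99, 6.31, 6.72 and 6.41, and DBN arrays 5.64, 5.98, 6.62, 6.27 and 6.62. The group means lay between 6.16 and 6.37 and the differences in the tested comparisons, interactions left out, between −0.10 and 0.10.

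RAD21, the subunit cut by separase, was level in H1299shRAD9 and scattered in H1299. At its 1 probe (base 3513) the H1299shRAD9 means were 7.41 to 7.61. H1299 DBN arrays read 6.47, 7.91, 6.92, 7.34 and 7.27, and CTL arrays 7.89, 7.74, 7.36, 7.61 and 7.51. The means of these groups, 7.18 and 7.62, were the lowest and the highest of the 10, and the difference of −0.44 did not pass (limma adjusted p of 0.471 or higher in every comparison of 2 groups).

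STAG1 (1 probe, base 4023) had means of 2.29 to 2.59, with differences of −0.21 to 0.10 in the tested comparisons of 2 groups and 0.19 in H1299shRAD9 DBP against CTL. Its arrays were spread widest in H1299 DBN, which read 0.92, 3.34, 2.32, 2.58 and 2.67.

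STAG2, the other alternative subunit, gave different results by probe. At base 375, H1299shRAD9 CTL arrays read 0.66, 0.70, 0.34, 0.68 and 1.31, DBN arrays 1.77, 1.77, 2.11, 2.12 and 1.68, and BN arrays 1.41, 2.17, 1.67, 2.34 and 1.85. DBP arrays read 0.88, 1.27, 1.99, 1.53 and 1.85, and BP arrays 1.42, 0.82, 1.66, 1.41 and 1.96. DBN and BN lay wholly above the controls, while DBP and BP overlap with control replicate 5. In H1299 the group means were 0.92 to 1.36 and the arrays ran from −0.57 (DBN replicate 2) to 2.10.

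STAG2 at base 375 rose by 1.15 ± 0.18 in H1299shRAD9 DBN (SE, 2.225-fold, 5 of 5 pairs, limma adjusted p = 0.0459) and by 0.72 ± 0.15 in BP (1.65-fold, 5 of 5 pairs, adjusted p = 0.0838). In BP it was the only member probe called, 1 of 16, against 1.48% of all probes called higher. In BN the difference was 1.15 ± 0.17 (adjusted p = 0.169), and DBN differed from BN by 0.00 (95% interval −0.32 to 0.33). The call in BP was lost without any 1 of the 5 replicates (adjusted p = 0.105 to 0.219), and the call in DBN without replicates 1, 2, 3 or 4 (0.105 to 0.1495).

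The STAG2 differences were also taken within slides, and with slide or the index in the fit. Within single slides the STAG2 difference at base 375 was 1.09 in DBN, 0.91 and 0.66 in BP, and 0.73 and 0.55 in BN, in each case above 0. With slide as a fixed block it was 0.84 in DBN and 0.80 in BP, and with the index as a covariate 0.76 and 0.38, with no call. The probe had r = 0.622 with the index and 0.80 with SMC1A at base 2535 over the 50 arrays.

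The downstream STAG2 probes did not follow base 375 in size. At base 4051 the differences from CTL in H1299shRAD9 were 0.44 in BP, 0.38 in DBN and 0.48 in BN (5 of 5 pairs each, limma adjusted p = 0.225, 0.338 and 0.308), and at base 5603 the 5 H1299shRAD9 means were 5.01 to 5.11. H1299shRAD9 CTL arrays at base 5603, the STAG2 probe with the highest mean, read 4.93, 5.02, 4.98, 5.31 and 5.12, and DBN arrays 4.93, 4.86, 5.35, 4.85 and 5.23. Over the 50 arrays base 375 had r = 0.298 with base 4051 and −0.0571 with base 5603.

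**Figure D3:**
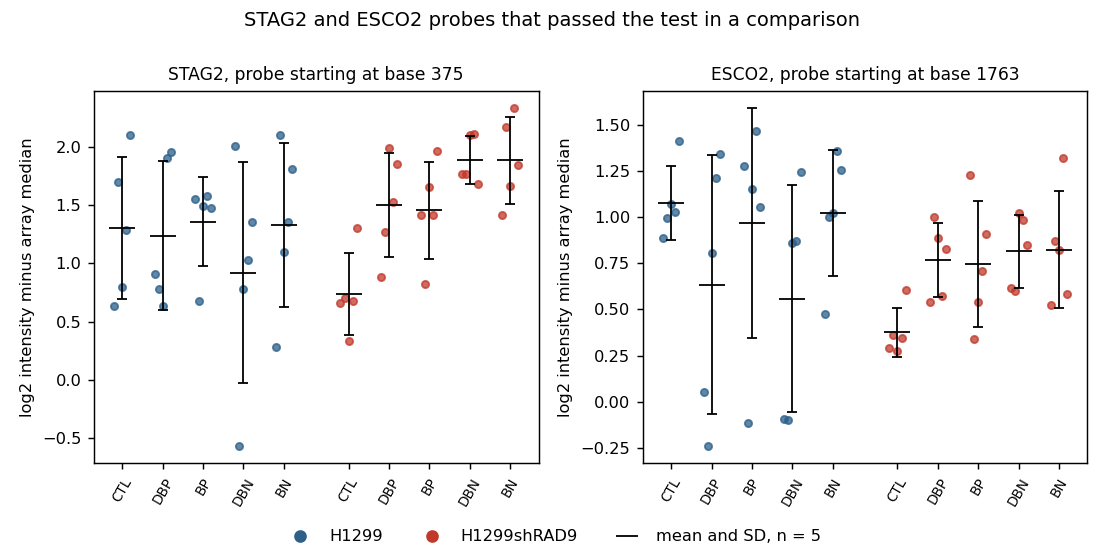
Levels of STAG2 at base 375 and ESCO2 at base 1763 (log2 relative to the array median) in the 10 groups; points are arrays, bars are means of 5 with SD. At base 375 of STAG2 the H1299shRAD9 DBN arrays (1.68 to 2.12) lie above all H1299shRAD9 control arrays (0.34 to 1.31), and at base 1763 of ESCO2 the H1299shRAD9 controls lie below all H1299 controls.

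NIPBL, the loader, was measured at base 8842. H1299shRAD9 CTL arrays read 3.23, 3.15, 3.01, 3.48 and 3.48, and H1299 CTL arrays 3.78, 3.67, 3.42, 3.52 and 3.36. The difference of −0.28 was the largest among the tested comparisons for this gene and did not pass (limma adjusted p = 0.149).

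PDS5A had 3 probes and no call at any of them. At base 6516, the one with the highest mean, H1299shRAD9 CTL arrays read 3.83, 4.02, 3.77, 4.36 and 3.96 and DBN arrays 3.69, 4.09, 4.25, 3.97 and 4.23. At base 2284 the unirradiated lines differed by −0.35 (limma adjusted p = 0.0773, p above 0.005). The probes did not move together, with r of −0.289 to 0.215 between pairs over the 50 arrays.

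PDS5B (base 6864) had means of 1.69 to 1.83 in H1299shRAD9 and 1.95 to 2.13 in H1299, with differences of −0.38 to 0.13. H1299 DBP and BP each held an array far above the rest, at 3.12 and 3.04. The probe had r = −0.618 with the index, RAD21 −0.528 and NIPBL −0.511, opposite in sign to the upstream SMC1A probes. SMC1A at base 9582 had r = −0.38 with it.

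**Figure D4:**
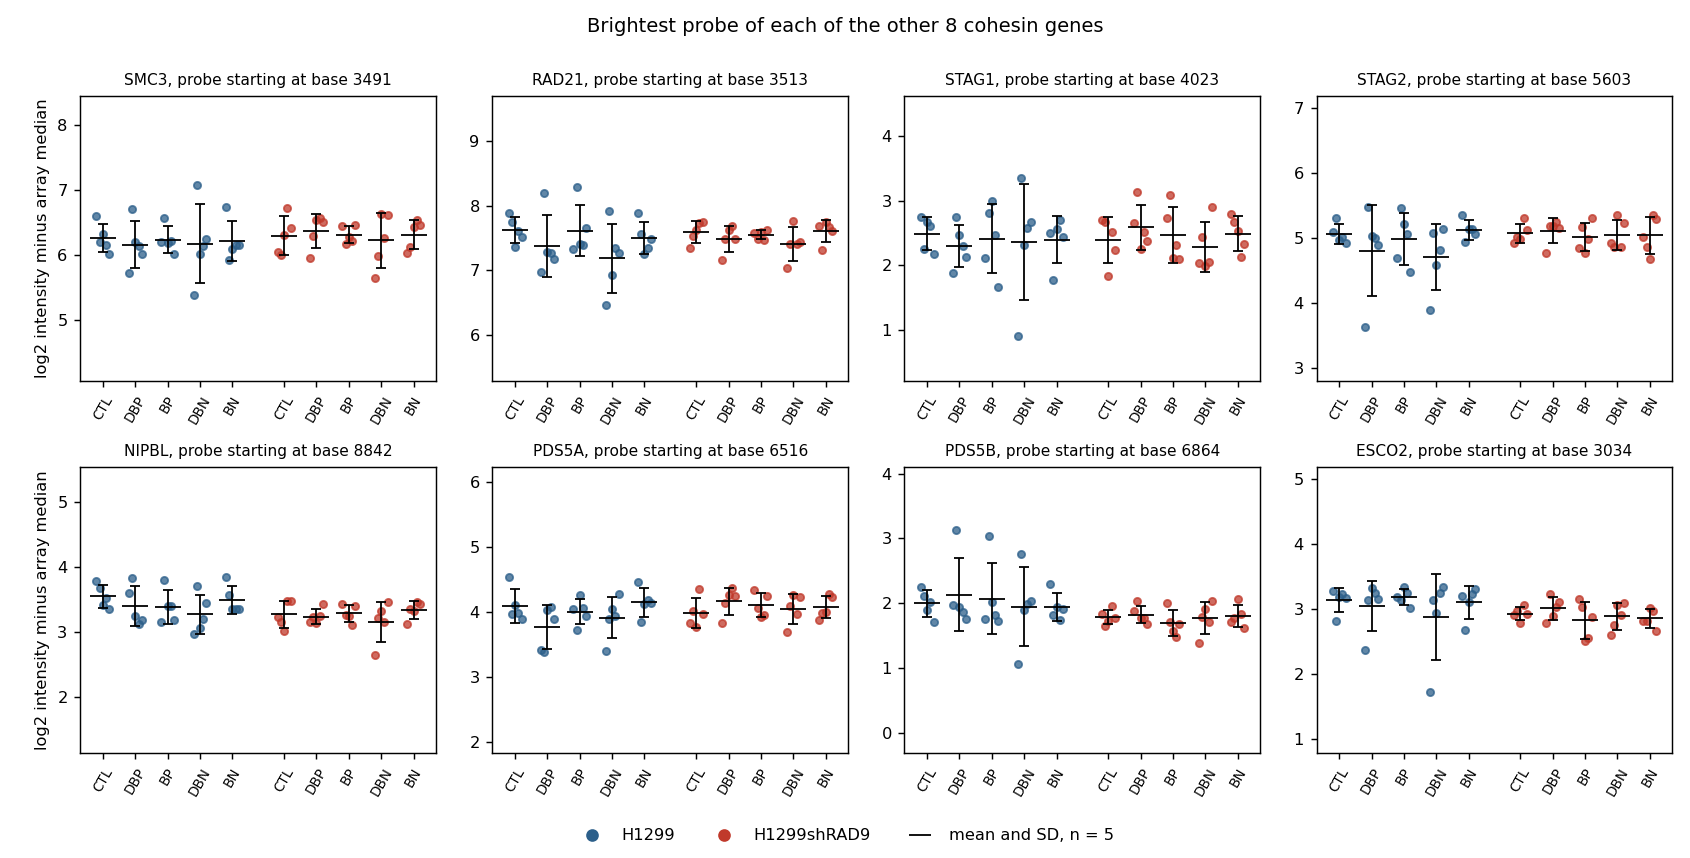
Levels of the probe with the highest mean of each of the 8 genes other than SMC1A (log2 relative to the array median) in the 10 groups; points are arrays, bars are means of 5 with SD. The means of the groups span from 0.21 (SMC3) to 0.44 (RAD21 and PDS5B) within a probe.

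ESCO2, the acetyltransferase, differed between the unirradiated lines at 1 of its 2 probes. At base 1763 the H1299shRAD9 CTL arrays read 0.29, 0.36, 0.28, 0.35 and 0.61, and the H1299 CTL arrays 0.89, 0.99, 1.07, 1.03 and 1.41. All 5 H1299shRAD9 controls were below all H1299 controls, by 0.70 on average (SE 0.12, 0.615-fold, limma adjusted p = 0.00546). This was 1 of 16 member probes called lower in this comparison and none was called higher, against 6.07% and 6.9% of all probes. A count of 1 in 16 is near that background.

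At base 3034 the same arrays read 2.91, 2.97, 2.79, 3.07 and 2.92 in H1299shRAD9 and 3.28, 2.81, 3.18, 3.24 and 3.17 in H1299, with overlap. The 2 probes had r = 0.479 over the 50 arrays. Base 1763 had the highest r with the 5′ to 3′ index of all member probes, 0.766, and the difference between lines was −0.39 with the index as a covariate (limma adjusted p = 0.13) and −0.29 with slide as a fixed block (0.729), so that the call was lost. No slide held CTL arrays of both lines.

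In the other H1299shRAD9 groups ESCO2 at base 1763 was nearer to H1299. DBN arrays read 0.61, 0.60, 1.02, 0.99 and 0.85, and the difference from CTL was 0.44 ± 0.11 (5 of 5 pairs, limma adjusted p = 0.112). It was 0.37 in BP (adjusted p = 0.326) and 0.45 in BN (0.251).

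SMC1A between the unirradiated lines differed by −0.72 ± 0.30 at base 621 and −0.75 ± 0.33 at base 2535 (limma adjusted p = 0.12 and 0.131), and by −0.09 at base 9582. STAG2 at base 375 differed by −0.57 (adjusted p = 0.162). The median over the 16 member probes was −0.20, against 0.06 over all probes, and 3 of 16 were above 0. At an unadjusted limma p under 0.05 there were 4 of the 16 member probes. Of all 20078 probes tested, 4010 were higher and 2789 lower at that p.

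In H1299 no member probe passed in any of the 6 comparisons by limma or by the random-variance test, and none had an unadjusted p under 0.05. At that p were 541 to 1392 of all 20078 probes in these comparisons. Of all probes 0.0349% were called in DBP against CTL, 0.00996% in DBN, 0% in BP and in BN, 0% in DBP against BP and 0.00498% in DBN against BN. SMC1A at base 2535 differed from CTL by −0.16 in DBP, 0.16 in BP, −0.54 in DBN (95% interval −1.18 to 0.10) and −0.05 in BN. In DBN all 16 member probes were below CTL, with a median of −0.27, and the median of all probes was −0.105.

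The change in H1299shRAD9 was set against that in H1299 as an interaction, with the replicate of each line as a block. For DBN the difference of the changes was 1.75 ± 0.40 for SMC1A at base 621, 1.57 ± 0.42 at base 2535, 1.54 ± 0.49 for STAG2 at base 375 and 0.96 ± 0.26 for ESCO2 at base 1763 (limma adjusted p = 0.141, 0.197, 0.312 and 0.197). No member was called by either test and 0.0149% of all probes were. At an unadjusted limma p under 0.05 were 5 of the 16 members and 1410 of all 20078 probes. All 16 members were above 0, with a median of 0.25 against 0.105 over all probes. Without replicate 1 the interaction was 2.18 and 2.105 at the SMC1A probes and passed. For BP and BN no member and 0% of all probes passed. At an unadjusted limma p under 0.05 were 1 and 4 of the 16 members, and 1307 and 1464 of all 20078 probes. A change seen in H1299shRAD9 was therefore not shown to differ from that in H1299.

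Between the lines within BP, DBN and BN no member passed by either test, where 7.23%, 2.47% and 8.25% of all probes did. At an unadjusted p under 0.05 there were 1, 4 and 0 member probes. SMC1A at base 621 was 1.03 ± 0.37 higher in H1299shRAD9 DBN than in H1299 DBN (limma adjusted p = 0.174) and STAG2 at base 375 0.97 ± 0.36 higher (0.188). In DBN of H1299shRAD9 against BN no member passed, and 0.0797% of all probes were called. No member had an unadjusted limma p under 0.05, where 447 of all 20078 probes had.

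**Figure D5:**
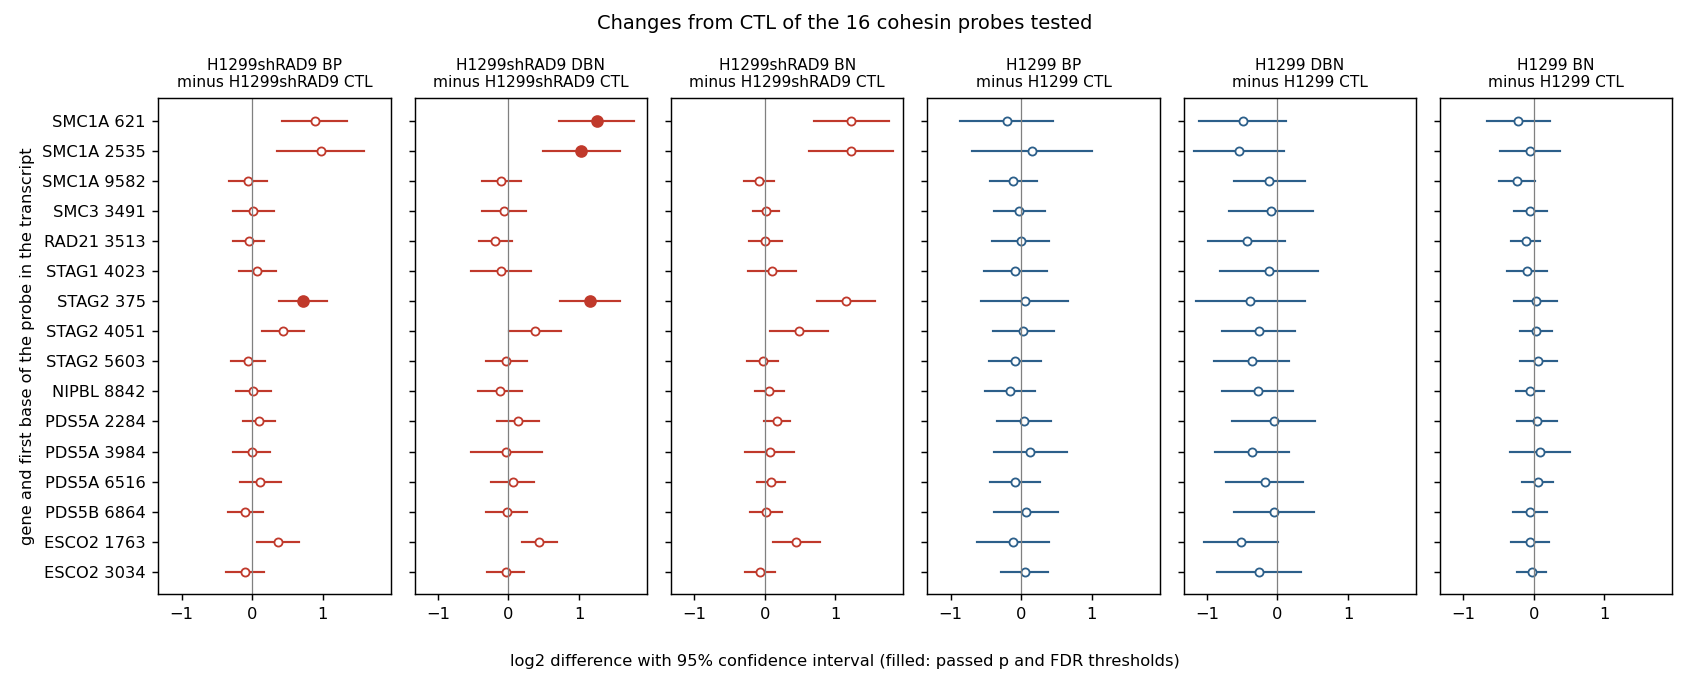
Differences of the 16 member probes tested (log2, horizontal axis) in BP, DBN and BN against CTL of the same line; points are fitted differences with 95% intervals, and filled points passed both thresholds. The probes of SMC1A at bases 621 and 2535 and of STAG2 at base 375 lie furthest to the right in H1299shRAD9, and no probe passed in H1299.

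Other genes of chromosome structure were read from lists, 1 probe per gene. The list of cohesin regulators, which named CTCF, WAPAL, ESPL1, CDCA5 and meiotic subunits among others, had 14 genes on the array. Of these, 12 passed the criterion on background and were tested. At an unadjusted limma p under 0.05 were 25 of their 204 tests. Of all 20078 probes, 447 were at that p in H1299shRAD9 DBN against BN and 5096 between lines in BN. None of the 12 was called in any of the 17 tested comparisons. SGOL2, the shugoshin that guards centromeric cohesin, had the largest differences of them from CTL, −0.71 in H1299shRAD9 DBN, −1.06 in H1299 DBP and −1.08 in H1299 DBN against CTL (adjusted p = 0.105, 0.262 and 0.532). Of 8 factors that establish cohesion at the fork, TIPIN, a partner of TIMELESS in fork protection, was higher in H1299shRAD9 than in H1299 by 0.73 in CTL, 0.78 in BP and 0.73 in BN (limma adjusted p = 0.00678, 0.0478 and 0.0335), and ATAD5, which unloads the clamp PCNA, by 0.50 in BN (0.056). These were 1, 1 and 2 of 8 genes, in comparisons where 6.9% of all probes were called higher (CTL) and 7.23% and 8.25% called in either direction (BP and BN). Of 8 condensin subunits, NCAPG fell by 0.71 in H1299shRAD9 DBN (adjusted p = 0.0346; 0.847% of all probes called lower) and NCAPH was 0.77 higher in H1299shRAD9 BP than in H1299 BP (0.0159; 7.23% of all probes called). Of 7 SMC5/6 genes, EID3 was 0.54 lower in H1299shRAD9 CTL (−0.54, limma adjusted p = 0.0306), 1 of 7 where 6.07% of all probes were called lower. In CTL and in BN the 2 lines shared no slide and no scan date, and in BP only slide 13. Line and slide therefore cannot be told apart in CTL and BN. With slide as a fixed block, 282 of all probes were called between CTL lines, against 2605 without. The part of slide was not tested for these genes.

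Genes of the cycle were counted beside these. Of 12 S phase genes, CDC6, the licensing factor, and UHRF1, which reads hemimethylated DNA, were higher in H1299shRAD9 CTL than in H1299 CTL by 0.52 and 0.68 (limma adjusted p = 0.0332 and 0.00764), and UHRF1 by 0.52 in BN (0.0622). The first count, 2 of 12, stood beside 6.9% of all probes called higher, and the second, 1 of 12, beside 8.25% called in either direction. Line and slide cannot be told apart for these differences either. In H1299shRAD9 DBN, all 12 G2/M genes were below CTL, 9 of them at an unadjusted limma p under 0.05. At that p 1228 of all 20078 probes were lower. Of the G2/M genes, 4 were called, where again 0.847% of all probes were called lower. They were the kinases AURKA (−0.91, adjusted p = 0.0402) and PLK1 (−0.60, 0.0832), the spindle factor TPX2 (−0.53, 0.0706) and CDCA8 of the chromosomal passenger complex (−0.83, 0.0236), and the median of the 12 was −0.42, against −0.01 over all probes. AURKA and CDCA8 also were lower in DBN than in BN of this line (−0.94 and −0.80, adjusted p = 0.0836 and 0.0385), where 0.0797% of all probes were called and SMC1A differed by 0.02 at base 621 and −0.19 at base 2535. In H1299 DBP, all 12 were below CTL, 10 of them at an unadjusted limma p under 0.05. At that p were 1118 of all 20078 probes, in either direction. AURKA, which fell by 1.18 (limma adjusted p = 0.0807), was called, where 0.0349% of all probes were. The median of the G2/M genes was −0.53 there, against 0.02 over all probes. In H1299 DBN their median was −0.63, against −0.105 over all probes, with all 12 below CTL and none called by limma. At an unadjusted limma p under 0.05 were 9 of the 12, and 659 of all 20078 probes in either direction.

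These counts leave out H1299shRAD9 DBP against CTL, the comparison behind the choice of genes, whose values are given as a description. There SGOL2 of the cohesin regulators (−0.56), NCAPG of the condensins (−0.57) and PLK1, AURKA and CDCA8 of the G2/M genes (−0.59, −0.765 and −0.81) met the thresholds, all lower, where 1.29% of all probes did, and the median of the 12 G2/M genes was −0.28, against 0.03 over all probes.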

How the data were processed

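Each array of 43118 spots other than controls was scanned and read by Feature Extraction, and the deposited files hold its processed intensity, for which the authors' software subtracted background. The authors also deposited log2 values, median normalized, for features passing their own criteria, of which 9476 are not controls and 5 are members; these served as an alternative.

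Here log2 of the processed intensity minus the array median was used, without outlier spots, with spots of a probe averaged. A probe was tested unless it was an outlier or not well above background on 25% or more of the 50 arrays (20078 probes, 15797 genes). Groups were compared with limma 3.58.1 in R 4.3.3, at p under 0.005 between unirradiated lines and 0.006 otherwise, with Benjamini-Hochberg adjustment over all probes and a limit of 10%. The labels give 5 biological replicates per group. Comparisons within a line had the replicate number as a block, since the study's methods name paired samples; same-numbered arrays deviated together (mean correlation 0.469 to 0.535 in H1299shRAD9, 0.145 to 0.413 in H1299, where the lowest pair was −0.176). The code was tested on simulated data.

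The members and gene lists were chosen with earlier results of these data known. Every member probe is accounted for, array values are given or plotted for each SMC1A probe and the probe of highest mean of each other gene, and called genes of the lists are named. STAG2 at base 375 and ESCO2 at base 1763 are given because probes of those genes differed in call. The number of arrays limits the precision.

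Alternatives were the 75th percentile, quantile and normexp scalings, 2 other filters, the deposited log2 values, the random-variance test of the methods, all groups in 1 fit, the block added or left out, slide as a random block and each replicate left out. Slide as a fixed block, all 50 arrays with no block, the 5′ to 3′ index as a covariate and within-slide differences were added after seeing the data. Probe positions and sequences came from the array annotation (hg19); exon annotation of that build was not used here.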

Additional observations from a re-analysis of the deposited data

Results flagged for a closer look

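In 13 of 130 sets of 5 arrays, 1 per probe and group over the 13 probes described by array, the highest or lowest array stood apart from the other 4 by a gap of over 0.71 of the range; chance gives about 1 in 20. Of these, 10 were in H1299.

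In several groups of H1299 the array of replicate 2, a different array in each group, stood apart. In DBP it was highest for RAD21 (8.20) and PDS5B (3.12), and in BP it was highest for PDS5B (3.04) and lowest for STAG2 at base 375 (0.68) and ESCO2 at base 1763 (−0.12). In BN it was lowest for STAG1 (1.77) and in CTL for ESCO2 at base 3034 (2.81). H1299 DBP and BP replicate 2 were also among the 5 arrays with the lowest 5′ to 3′ index. The replicate 2 arrays of H1299 CTL, DBP, BP and BN lay on the same slide, so that replicate and slide cannot be told apart for them.

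Replicate 1 of H1299 was lowest for ESCO2 at base 3034 in DBN (1.72) and DBP (2.37), and highest for SMC1A at base 9582 in DBP (4.13). In H1299shRAD9, DBP replicate 1 was lowest for STAG2 at base 5603 (4.78), DBP replicate 3 lowest for SMC1A at base 9582 (2.87) and CTL replicate 5 highest for ESCO2 at base 1763 (0.61). The causes were not tested.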

How the results depend on the processing

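Of 4508 differences of member probes recomputed under up to 18 settings per comparison, 4006 kept their direction and their side of the threshold, 45 lost a call, 18 gained one, 439 changed sign without a call in either setting and 0 changed sign with a call. The cause was not tested.

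The number of member probes called in H1299shRAD9 DBN (3) was 1 with the deposited log2 values, which hold 5 member probes, 0 to 2 with a replicate left out, and 0 in the fits of 50 arrays with slide, with no block or with the index. In BP (1) it was 2 with normexp, and 0 with the 75th percentile, quantile normalization, the deposited values, all groups in 1 fit, no replicate block, each replicate left out (0 to 0) and the 3 fits of 50 arrays. In BN (0) it was 3 with all groups in 1 fit, both upstream SMC1A probes and STAG2 at base 375.

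Between unirradiated lines (1) it was 0 with slide fixed or with all groups in 1 fit, which between lines is the fit of 50 arrays without a block. It was 2 with the replicate block (SMC1A at base 621 added) or the index (NIPBL and PDS5A at base 2284, without ESCO2). Between lines in BP (0) it was 1 with the 75th percentile, with slide fixed or with the index. Between lines in DBN (0) it was 2 with the replicate block. It was 1 there with all groups in 1 fit (the same fit as no block), with slide fixed or with the index. In the interaction for DBN (0) it was 2 without replicate 1 and 0 to 2 over the replicates. Leaving out the replicate block gave 2 in H1299shRAD9 DBN (SMC1A at base 2535 lost), and adding or leaving it out changed no further count. Slide as a random block could not be fitted between lines in BP, DBN and BN.

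Over all probes the count in H1299shRAD9 DBN was 562 (18 to 1069 over settings), in BP 324 (0 to 324), in BN 6 (0 to 589) and against BN 16 (2 to 46). Between lines it was 2605 in CTL (282 to 2893), 1451 in BP (339 to 2407), 496 in DBN (78 to 3423) and 1656 in BN (0 to 1914). In H1299 it was 7 in DBP (0 to 84), 0 in BP (0 to 5), 2 in DBN (0 to 403), 0 in DBP against BP (0 to 27) and 1 in DBN against BN (0 to 129), and in the interactions 3 for DBN (0 to 168) and 0 for BN (0 to 1).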
